A study of Mus musculus with 16 samples.

Results

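The genes of fatty acid and cholesterol synthesis were followed across luminal mammary epithelial cells of 4 mouse genotypes. The set was a list of 34 enzymes and regulators, each read by 1 Affymetrix probe set, namely the probe set that names no other gene and has the highest mean over the 16 arrays. Such a probe set was present for 32 of the 34 genes, among 17097 genes in all. Scd2 and Srebf1 were not analysed here. Hmgcs1 and Lss had means of 3.62 and 3.38 on the log2 scale, under the minimum of 3.67 set for testing, so that 30 members stood among the 14410 genes tested.

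Luminal cells were purified from mammary glands by flow cytometric sorting, and total RNA of each sorted sample was hybridised to 1 array. Mapk14 encodes the stress-activated kinase p38alpha, and p38a-lox denotes its conditional allele. PyMT is the polyoma virus middle T antigen, an oncogene that gives rise to mammary tumours. The first pair of groups, 6 weeks old, held p38a-lox, MMTV-Cre, MMTV-PyMT mice (labelled p38a_MMTV-Cre_PyMT, here p38a-lox PyMT) and MMTV-Cre, MMTV-PyMT mice (labelled MMTV-Cre_PyMT, here PyMT). The other pair, 9 weeks old, held p38a-lox, MMTV-Cre mice (labelled p38a_MMTV-Cre, here p38a-lox) and MMTV-Cre mice. There were 4 arrays in each group. All 16 samples carried MMTV-Cre, in which the viral MMTV promoter, active in mammary epithelium, drives the recombinase, and the same promoter drives PyMT. Every mouse with PyMT was 6 weeks old and every mouse without it 9 weeks old, which means that the oncogene and the age cannot be told apart. The labels do not say whether each array came from a separate animal, and p-values measure the spread between these arrays.

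Fatty acid synthesis turns cytosolic acetyl-CoA into palmitate, which elongases and desaturases then lengthen and unsaturate and acyltransferases build into triglyceride. Cholesterol synthesis runs from acetyl-CoA through mevalonate and squalene to lanosterol, whose methyl groups and double bonds are then removed or moved. Both pathways are controlled by the SREBP transcription factors, which the Insig proteins hold in the endoplasmic reticulum when sterols are plentiful. The mammary epithelium is known for intense fatty acid synthesis in lactation, when luminal cells secrete milk fat.

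The luminal keratins Krt8 and Krt18 had log2 signals of 12.14 to 12.54 and 11.91 to 12.28 over the 16 arrays, and Epcam 10.93 to 11.99. Other luminal markers varied more, Cldn4 between 8.90 and 12.03 and Foxa1 between 3.91 and 8.78 (lowest to highest of the 16 arrays). Of the 9 luminal markers measured, 6 had negative estimates in PyMT against MMTV-Cre cells, with a median of -0.39 and none called. Array medians lay between 4.63 and 4.88, and pairwise correlations between 0.885 and 0.99. Replicate 2 of p38a-lox and replicate 4 of PyMT correlated least well with the rest. Sample titles carry numbers that form a low block (9 arrays) and a high block (7 arrays), called the lower and the higher title range; the labels do not say what they mean. Mapk14 itself had log2 signals of 7.09, 7.25, 7.34 and 7.24 in p38a-lox PyMT arrays, 7.17, 7.12, 7.65 and 6.88 in PyMT arrays, 6.79, 6.37, 7.91 and 8.16 in p38a-lox arrays, and 7.11, 7.43, 5.56 and 6.02 in MMTV-Cre arrays. Between p38a-lox PyMT and PyMT arrays Mapk14 differed by 0.03 on the log2 scale, with a standard error of 0.416. The arrays labelled replicates 3 and 4 without PyMT, all in the higher range, ran against their labels, with p38a-lox above MMTV-Cre. Where this probe set lies relative to the deleted part is not given, so it does not check the genotypes, and for the members the results turn on, differences that use those 4 arrays are also given without them.

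**Figure D1:**
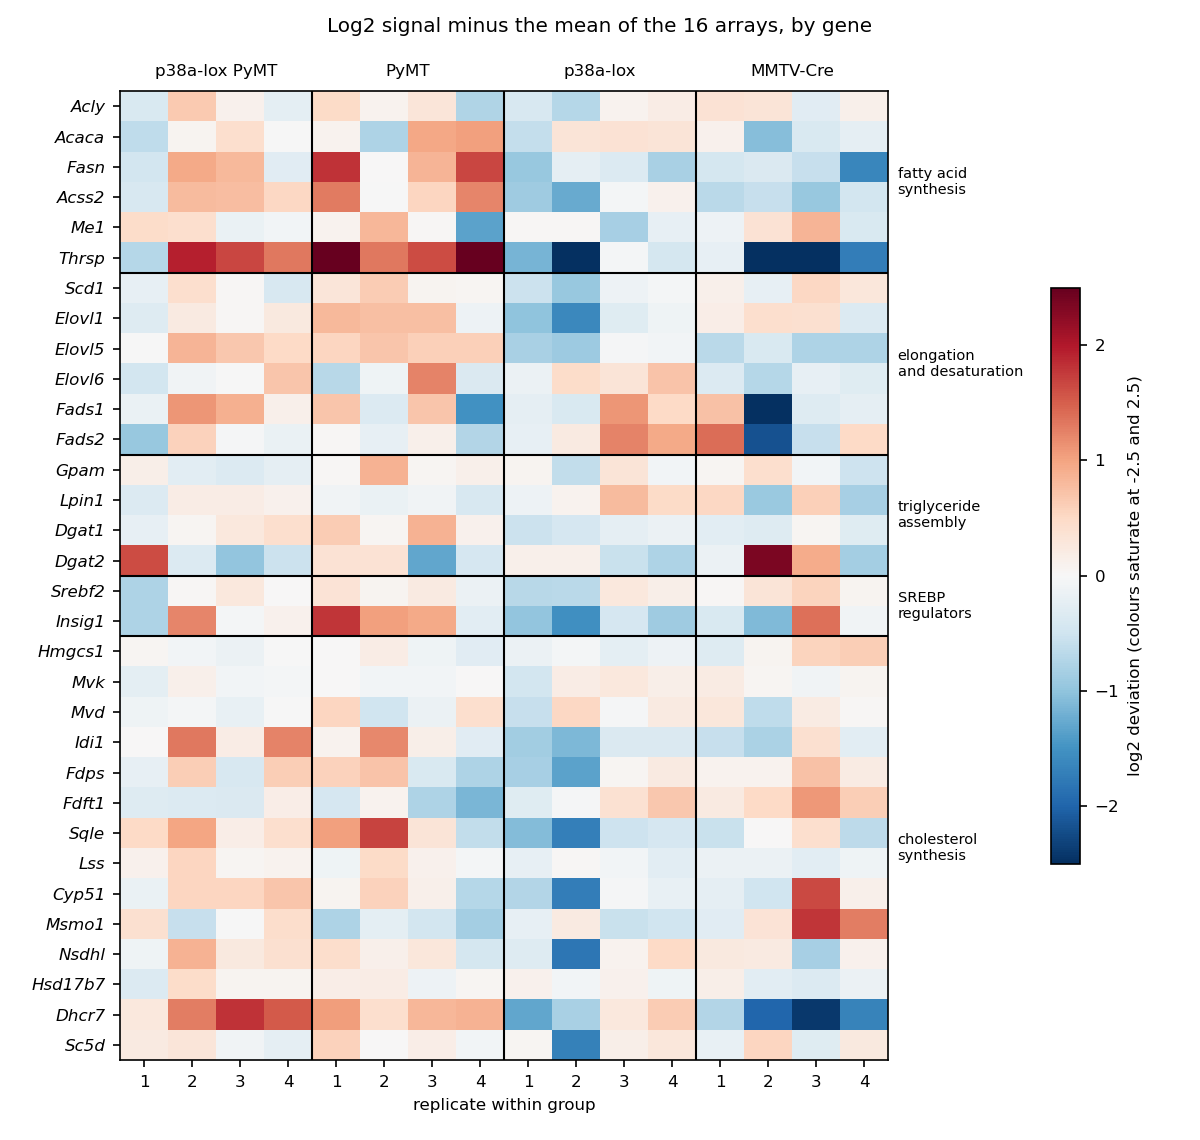
Log2 signal of the 32 measured members in each of the 16 arrays (columns, by group and replicate), as the deviation from the gene's mean over all arrays (colour); horizontal lines separate the roles. Thrsp and Dhcr7 carry the widest contrast between PyMT arrays and MMTV-Cre arrays, while p38a-lox replicate 2 is low in many cholesterol synthesis genes and MMTV-Cre replicate 3 is high in Insig1, Cyp51 and Msmo1.

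PyMT cells were set against MMTV-Cre cells to ask how the oncogene, together with the younger age, was reflected in lipid synthesis. Thrsp, Dhcr7, Fasn and Elovl5 rose, by 15.6-fold, 5.62-fold, 3.58-fold and 2.38-fold (limma, adjusted p under 0.05 over all 14410 genes), and no member fell past that threshold. The 4 members called higher are 13.3% of the 30 tested, against 0.881% of all genes tested. In either direction 1.26% of genes were called. The risers sat in 3 roles: 2 of 6 tested genes of fatty acid synthesis, 1 of 6 of elongation and desaturation and 1 of 12 of cholesterol synthesis. None of the 4 triglyceride assembly genes and neither of the 2 SREBP regulators was called. In bulk RNA of a sorted population, a change in the share of cells that express a gene and a change in RNA per cell cannot be told apart.

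Fasn is the fatty acid synthase, the multifunctional enzyme that builds palmitate. Its log2 signals were 8.79, 6.99, 7.83 and 8.65 in PyMT arrays, against 6.53, 6.62, 6.40 and 5.35 in MMTV-Cre arrays. All 4 PyMT arrays lay above the highest MMTV-Cre array, though PyMT replicate 2 did so by little and MMTV-Cre replicate 4 was well below its group. The log2 difference was 1.84 ± 0.422 (SE, n = 4 each; limma adjusted p = 0.0484).

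Thrsp, also called Spot 14, is a small protein that promotes fatty acid synthesis in lipogenic tissues, the lactating mammary gland among them. The log2 signals of Thrsp were 10.23, 9.03, 9.35 and 10.25 in PyMT arrays, against 7.50, 4.55, 4.96 and 5.99 in MMTV-Cre arrays. The groups did not overlap, and PyMT arrays spread less (SD 0.623) than MMTV-Cre arrays (SD 1.32). The difference was 3.97 ± 0.71 on the log2 scale (SE; adjusted p = 0.0145). A further Thrsp probe set differed by 2.27 in the same direction.

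Elovl5 elongates polyunsaturated fatty acids. It had log2 signals of 10.68, 10.85, 10.74 and 10.74 in PyMT arrays, against 9.49, 9.76, 9.38 and 9.37 in MMTV-Cre arrays. The 4 PyMT arrays were close together (SD 0.0726) and stood clear of every MMTV-Cre array. The difference was 1.25 ± 0.217 (SE; adjusted p = 0.0135), and the other Elovl5 probe set differed by 1.15.

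Dhcr7 reduces 7-dehydrocholesterol to cholesterol at the end of the pathway. For Dhcr7 the log2 signals were 8.94, 8.31, 8.73 and 8.77 in PyMT arrays, against 7.17, 5.92, 5.48 and 6.22 in MMTV-Cre arrays. The lowest PyMT array was more than 1 log2 unit above the highest MMTV-Cre array. The difference was 2.49 ± 0.44 (SE; adjusted p = 0.0142).

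To show what lies upstream of the genes that rose, the 250 bases before the most upstream RefSeq start of each are printed here, with Msmo1, a cholesterol synthesis gene whose estimate ran the other way, beside them. The sequences are RefSeq's on GRCm38.p6, read 5′ to 3′ on the gene's strand, and capitals mark CCAAT boxes (CCAAT), GC boxes (GGGCGG) and E-boxes (CACGTG) on either strand. The windows are chr11:120824548-120824797 (minus strand) for Fasn, chr7:97417551-97417800 (minus strand) for Thrsp, chr9:77917115-77917364 (plus strand) for Elovl5, chr7:143822917-143823166 (plus strand) for Dhcr7 and chr8:64733579-64733828 (minus strand) for Msmo1.
Fasn: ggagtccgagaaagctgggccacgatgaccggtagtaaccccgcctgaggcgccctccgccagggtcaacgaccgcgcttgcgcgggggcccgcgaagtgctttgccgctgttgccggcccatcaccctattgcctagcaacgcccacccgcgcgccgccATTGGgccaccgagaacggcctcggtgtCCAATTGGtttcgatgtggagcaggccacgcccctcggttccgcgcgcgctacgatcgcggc
Thrsp: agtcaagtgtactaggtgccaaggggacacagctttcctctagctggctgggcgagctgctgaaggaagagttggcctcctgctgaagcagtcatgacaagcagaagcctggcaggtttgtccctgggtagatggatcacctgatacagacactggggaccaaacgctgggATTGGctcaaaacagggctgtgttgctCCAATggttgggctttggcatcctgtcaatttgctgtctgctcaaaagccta
Elovl5: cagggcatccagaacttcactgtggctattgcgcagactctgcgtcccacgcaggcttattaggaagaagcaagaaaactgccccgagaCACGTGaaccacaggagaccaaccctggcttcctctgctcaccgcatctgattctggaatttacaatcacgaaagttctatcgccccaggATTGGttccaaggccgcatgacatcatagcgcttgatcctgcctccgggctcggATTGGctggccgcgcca
Dhcr7: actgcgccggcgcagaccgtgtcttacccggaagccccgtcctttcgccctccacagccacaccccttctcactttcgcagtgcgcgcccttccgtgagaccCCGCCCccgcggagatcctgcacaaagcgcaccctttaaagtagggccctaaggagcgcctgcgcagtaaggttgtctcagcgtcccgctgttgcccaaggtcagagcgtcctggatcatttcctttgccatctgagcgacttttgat
Msmo1: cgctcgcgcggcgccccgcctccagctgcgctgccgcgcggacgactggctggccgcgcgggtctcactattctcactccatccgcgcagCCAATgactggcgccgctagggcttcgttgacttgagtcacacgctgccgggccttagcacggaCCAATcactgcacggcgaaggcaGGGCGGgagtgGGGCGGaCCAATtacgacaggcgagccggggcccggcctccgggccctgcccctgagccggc
Fasn held 3 CCAAT matches, of which the last pair overlap on opposite strands, Thrsp and Elovl5 held 2 each, and Msmo1 held 3. Elovl5 also held 1 E-box, Dhcr7 held 1 GC box and Msmo1 held 2. A window was present for 26 of the 34 members, and 21 of them (80.8%) had a CCAAT box in at least 1 of their windows, against 37.5% of 27025 genes. A GC box was found in 20 of the 26 (76.9%), against 35.4% of all genes, and an E-box in 5 (19.2%), against 6.86%. The sterol regulatory element letters TCACNCCAC, searched on both strands, occurred in 1 member (Hmgcs1), against 1.22% of all genes. Dhcr7 had 3 windows, and its E-box and CCAAT matches lay in those not printed. These are matches of letters, not measured binding sites.

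Other members had estimates of both signs in PyMT arrays that did not pass the threshold over all genes. Acss2, which makes acetyl-CoA from acetate, differed by 1.43 ± 0.355 (SE; adjusted p = 0.0686; 1.39 without replicates 3 and 4 of p38a-lox and MMTV-Cre), and Dgat1, which adds the last acyl chain of triglyceride, by 0.62 ± 0.194 (adjusted p = 0.136). In both genes the 4 PyMT arrays all lay above the 4 MMTV-Cre arrays. Acaca, the acetyl-CoA carboxylase that supplies malonyl-CoA, differed by 0.72 ± 0.38 (adjusted p = 0.445). Acly, the ATP citrate lyase upstream of it, differed by -0.10 ± 0.294 (adjusted p = 0.927). Over the 6 fatty acid synthesis genes the median log2 difference was 1.07 and the range -0.27 to 3.97. Their mean log2 signal lay between 8.15 and 8.96 in PyMT arrays and between 7.16 and 7.74 in MMTV-Cre arrays, with no overlap.

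The elongases and desaturases had a median difference of 0.40, and all 6 estimates were positive with the probe sets used. Apart from Elovl5 they ran from 0.02 for Fads2, a desaturase of polyunsaturated fatty acids, to 0.50 for its partner Fads1. Scd1, the stearoyl-CoA desaturase that makes oleate, differed by 0.09 ± 0.232 (SE; adjusted p = 0.919). The signs were not uniform over the other probe sets of these genes. Those of Scd1 (-0.23), Elovl6 (-0.29 and -0.25) and Fads2 (-0.23 and -0.07) were under 0. Those of Elovl1 (0.49), Elovl5 (1.15) and Fads1 (0.16) were above it. In the SREBP system, Insig1 differed by 0.92 ± 0.531 (adjusted p = 0.494) and Srebf2, the SREBP of cholesterol genes, by -0.12 ± 0.256 (adjusted p = 0.893).

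Estimates for cholesterol synthesis genes had both signs, with a median of 0.10 over 12 tested genes and a range of -1.36 to 2.49. Fdft1, the squalene synthase, had log2 signals of 7.23, 7.74, 6.87 and 6.50 in PyMT arrays, against 7.88, 8.13, 8.72 and 8.26 in MMTV-Cre arrays. Every PyMT array was below every MMTV-Cre array, and the difference of -1.16 ± 0.27 (SE) narrowly missed the threshold (limma adjusted p = 0.0504). Msmo1, a sterol C4 methyl oxidase, had log2 signals of 5.11, 5.64, 5.43 and 5.03 in PyMT arrays, against 5.59, 6.22, 7.66 and 7.17 in MMTV-Cre arrays. MMTV-Cre replicate 1 lay within the PyMT range and the other 3 MMTV-Cre arrays above it, replicates 3 and 4 furthest. The difference was -1.36 ± 0.371 (SE; adjusted p = 0.0886), and a further Msmo1 probe set differed by -0.43. Without replicates 3 and 4 of p38a-lox and MMTV-Cre, Msmo1 differed by -0.605 (adjusted p = 0.53) and Fdft1 by -0.92 (adjusted p = 0.27). Within the lower title range Msmo1 differed by -0.65 and within the higher by -1.98. Sqle, the squalene epoxidase, differed by 0.79 ± 0.423 (adjusted p = 0.447), and Cyp51, the lanosterol demethylase, by -0.25 ± 0.452 (adjusted p = 0.875).

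Over all 30 tested members, 20 estimates were positive (66.7%, against 55% of all genes) and the median was 0.20, against 0.03 over all genes. Without MMTV-Cre replicate 1 the median of the members was 0.32. PyMT and MMTV-Cre arrays were fully separate for 7 members (23.3%, against 7.09% of all genes), of which 6 were higher and 1 lower, against 4.44% and 2.65% of all genes. An unadjusted p under 0.05 was reached by 8 members (26.7%), against 13.8% of all genes.

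**Figure D2:**
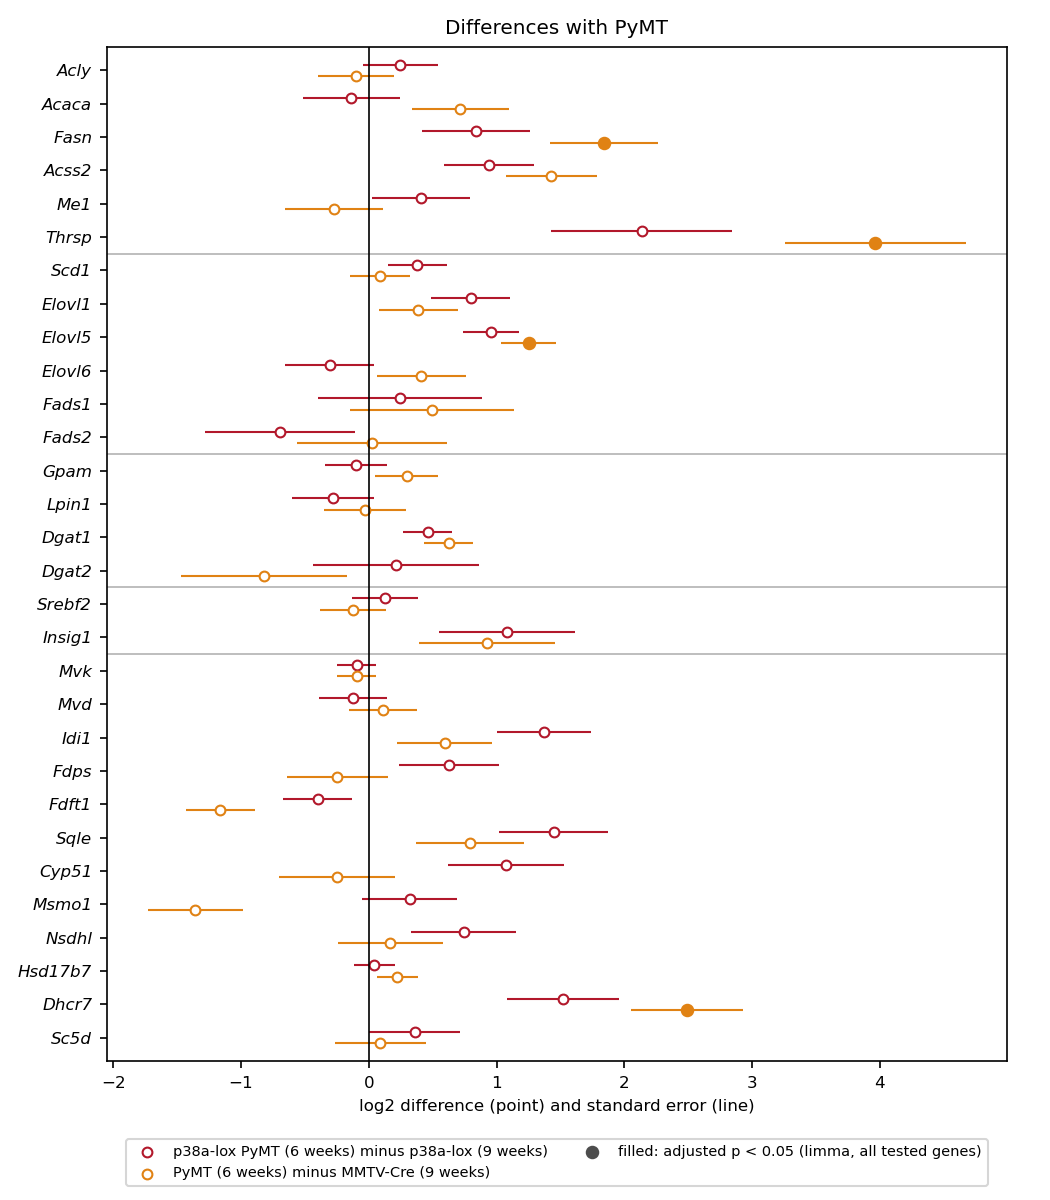
Log2 differences (points) and standard errors (lines) of the 30 tested members between groups with and without PyMT, with p38a-lox in red and without it in orange; filled points passed the adjusted threshold. The filled points are Fasn, Thrsp, Elovl5 and Dhcr7 in PyMT minus MMTV-Cre, and Fdft1 and Msmo1 lie furthest to the left there, at -1.16 and -1.36.

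The number of members called in this comparison depended on the arrays fitted. With 1 array left out at a time, the difference ran from 3.57 to 4.55 for Thrsp and from 1.21 to 1.34 for Elovl5. That of Dhcr7 ran from 2.25 to 2.81. Without PyMT replicate 1 the number of members called was 1, Elovl5, and without PyMT replicate 4 it was 2. Without replicates 3 and 4 of p38a-lox and MMTV-Cre it was 0, at differences of 1.49 for Fasn, 3.69 for Thrsp, 1.13 for Elovl5 and 2.14 for Dhcr7. Fasn also lost its call without PyMT replicate 3 or MMTV-Cre replicate 1, 3 or 4, and in 13 of 22 alternatives in all (adjusted p 0.0069 to 0.319), while its difference stayed between 1.49 and 2.27. Within the lower range of title numbers the differences were 1.57 for Fasn, 3.81 for Thrsp, 1.13 for Elovl5 and 2.13 for Dhcr7, and within the higher range, with PyMT replicate 3 alone on the PyMT side, 1.95, 3.88, 1.36 and 2.88 in the same order of genes.

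Other genes differed alongside these. Of the 10 immediate early genes, which respond within minutes to growth factors or to stress such as tissue dissociation, 5 rose, namely Egr1 by 2.59, Nr4a1 by 1.99, Fosb by 1.89, Egr2 by 1.85 and Dusp1 by 1.33 on the log2 scale (limma adjusted p = 0.0139, 0.0242, 0.0376, 0.0301 and 0.0323). The 10 had a median difference of 1.40, and their mean log2 signal lay between 8.96 and 9.62 in PyMT arrays and between 7.69 and 8.69 in MMTV-Cre arrays, with no overlap. Of the milk protein genes, Wap rose by 3.35 and Lalba by 3.21 on the log2 scale (adjusted p = 0.00203 and 0.0398). The 8 measured milk secretion genes had a mean log2 signal of 9.07 to 10.77 in PyMT arrays and 7.70 to 10.02 in MMTV-Cre arrays. Of their estimates 6 were positive and 2 negative, the lowest at -0.95. The 8 basal and myoepithelial markers had a mean signal of 7.12 to 8.01 in PyMT arrays and 5.76 to 7.57 in MMTV-Cre arrays. Among them 1, Trp63, was called (2.21, adjusted p = 0.0142). Of the 8 estimates 6 were positive and 2 negative, those of Myh11 (-0.39) and Oxtr (-0.22). Of 10 adipocyte markers 7 were measured, with a mean signal of 4.78 to 5.13 in PyMT arrays and 4.66 to 4.77 in MMTV-Cre arrays. None of the 4 tested was called, and Adipoq, Lep and Pck1 were below the minimum for testing. Adipoq, which defines adipocytes, had signals of 3.21 to 3.57 in PyMT arrays and 3.30 to 3.53 in MMTV-Cre arrays. Fabp4 lay between 3.49 and 7.61 in PyMT arrays and between 3.56 and 5.57 in MMTV-Cre arrays. No marker of macrophages, fibroblasts, endothelium, lymphocytes or the cell cycle was called in this comparison. Without replicates 3 and 4 of p38a-lox and MMTV-Cre none of the 8 genes named here as called kept its call, with adjusted p from 0.0563 for Wap to 0.159. The part of immediate early genes, milk secretion, basal cells and adipocytes in the lipid gene differences was not tested.

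The same contrast with the p38a-lox allele in both groups, p38a-lox PyMT against p38a-lox, called 0 of the 30 members (limma), where 0.777% of all genes were called. An unadjusted p under 0.05 was reached by 9 members, all higher (30%), against 6.77% of all genes that were higher at that level. At an unadjusted p under 0.05 in either direction stood 12.2% of all genes. The 9 members were Acss2, Cyp51, Dgat1, Dhcr7, Elovl1, Elovl5, Idi1, Sqle and Thrsp. The median of the members was 0.37, against -0.02 over all genes, and 22 of 30 estimates were positive (73.3%, against 46.5%).

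Elovl5 came nearest to the threshold here. The log2 signals of Elovl5 were 10.15, 11.00, 10.83 and 10.64 in p38a-lox PyMT arrays, against 9.34, 9.24, 10.12 and 10.08 in p38a-lox arrays. The groups only just separated, p38a-lox PyMT replicate 1 lying next to p38a-lox replicates 3 and 4. The difference was 0.96 ± 0.217 (SE; adjusted p = 0.0521), and the other probe set gave 1.51.

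Idi1 interconverts the activated isoprene units that follow mevalonate. It had log2 signals of 5.86, 7.18, 6.04 and 7.09 in p38a-lox PyMT arrays, against 4.99, 4.72, 5.50 and 5.48 in p38a-lox arrays. Every p38a-lox PyMT array was above every p38a-lox array, at a difference of 1.37 ± 0.371 (SE; adjusted p = 0.109), and a further Idi1 probe set differed by 2.35. Between PyMT and MMTV-Cre cells the Idi1 signals were 5.94, 7.05, 6.00 and 5.57 in PyMT arrays, against 5.28, 5.07, 6.26 and 5.58 in MMTV-Cre arrays. The groups overlapped there, at a difference of 0.59 ± 0.371 (adjusted p = 0.538), while the further probe set differed by 1.44. That probe set was dim without PyMT, with means of 3.23 in p38a-lox and 3.89 in MMTV-Cre arrays, beside the minimum of 3.67 for testing. Sqle had log2 signals of 7.13, 7.61, 6.80 and 7.05 in p38a-lox PyMT arrays, against 5.55, 4.93, 6.11 and 6.22 in p38a-lox arrays, again without overlap, at a difference of 1.45 ± 0.423 (adjusted p = 0.144).

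Dhcr7 had signals of 8.16, 9.18, 9.70 and 9.42 in p38a-lox PyMT arrays, against 6.59, 7.10, 8.16 and 8.53 in p38a-lox arrays in this contrast. The lowest p38a-lox PyMT array fell between p38a-lox replicates 3 and 4, and the difference was 1.52 ± 0.44 (SE; adjusted p = 0.141). Thrsp had signals of 7.01, 9.65, 9.38 and 9.03 in p38a-lox PyMT arrays, against 6.55, 5.04, 7.66 and 7.28 in p38a-lox arrays. Replicate 1 of p38a-lox PyMT lay within the p38a-lox range and the other 3 above it, at a difference of 2.14 ± 0.71 (adjusted p = 0.199). For Fasn, with 6.52, 7.93, 7.79 and 6.70 in p38a-lox PyMT arrays, against 6.02, 6.75, 6.64 and 6.17 in p38a-lox arrays, the difference was 0.84 ± 0.422 (adjusted p = 0.456) and the groups overlapped.

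By role, 9 of 12 cholesterol synthesis estimates were positive, with a median of 0.49, and 5 of 6 fatty acid synthesis estimates, with a median of 0.62. Arrays did not overlap for 3 tested members, Elovl5, Idi1 and Sqle (10%, against 8.16% of all genes). Leaving out p38a-lox replicates 3 and 4 and MMTV-Cre replicates 3 and 4 brought the number called to 4, with Elovl5 at 1.36 (adjusted p = 0.0184), Dhcr7 at 2.27 (adjusted p = 0.0327), Elovl1 at 1.35 (adjusted p = 0.0391) and Cyp51 at 1.64 (adjusted p = 0.0464). On the p38a-lox side only replicates 1 and 2 then remained. Their median correlations with the other arrays were 0.946 and 0.934, against 0.964 and 0.961 for p38a-lox replicates 3 and 4. The members' median deviation from the gene means was -0.54 and -0.652 there, against 0.0154 and 0.0273 in replicates 3 and 4. The 4 calls were measured against p38a-lox replicates 1 and 2, and why member signals were low there was not tested. Without replicates 3 and 4 of p38a-lox and MMTV-Cre, Idi1 differed by 1.69, Sqle by 1.91, Thrsp by 2.98 and Fasn by 0.85. The median of the members was then 0.66. Within the lower title range the median was 0.74 and within the higher 0.00279. Leaving out p38a-lox replicate 4 or p38a-lox PyMT replicate 1 alone brought the number called to 1, Elovl5. The basal and myoepithelial markers had a mean log2 signal of 7.33 to 8.14 in p38a-lox PyMT arrays and 5.38 to 7.23 in p38a-lox arrays, with no overlap and none called. Of the 8 macrophage markers 1 rose, Cd68, with log2 signals of 8.70 to 9.44 in p38a-lox PyMT arrays and 5.38 to 7.45 in p38a-lox arrays (difference 2.74, adjusted p = 0.0357). The mean log2 signal of the 8 was 5.16 to 5.57 in p38a-lox PyMT arrays and 4.89 to 5.50 in p38a-lox arrays. Of their estimates 4 were positive and 4 negative. Of the 10 immediate early genes 1 rose, Fosb, by 2.39 (adjusted p = 0.0167), and their mean signal was 8.78 to 9.51 in p38a-lox PyMT arrays and 8.12 to 9.08 in p38a-lox arrays. The part of these cell types and genes in the lipid gene values was not tested.

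**Figure D3:**
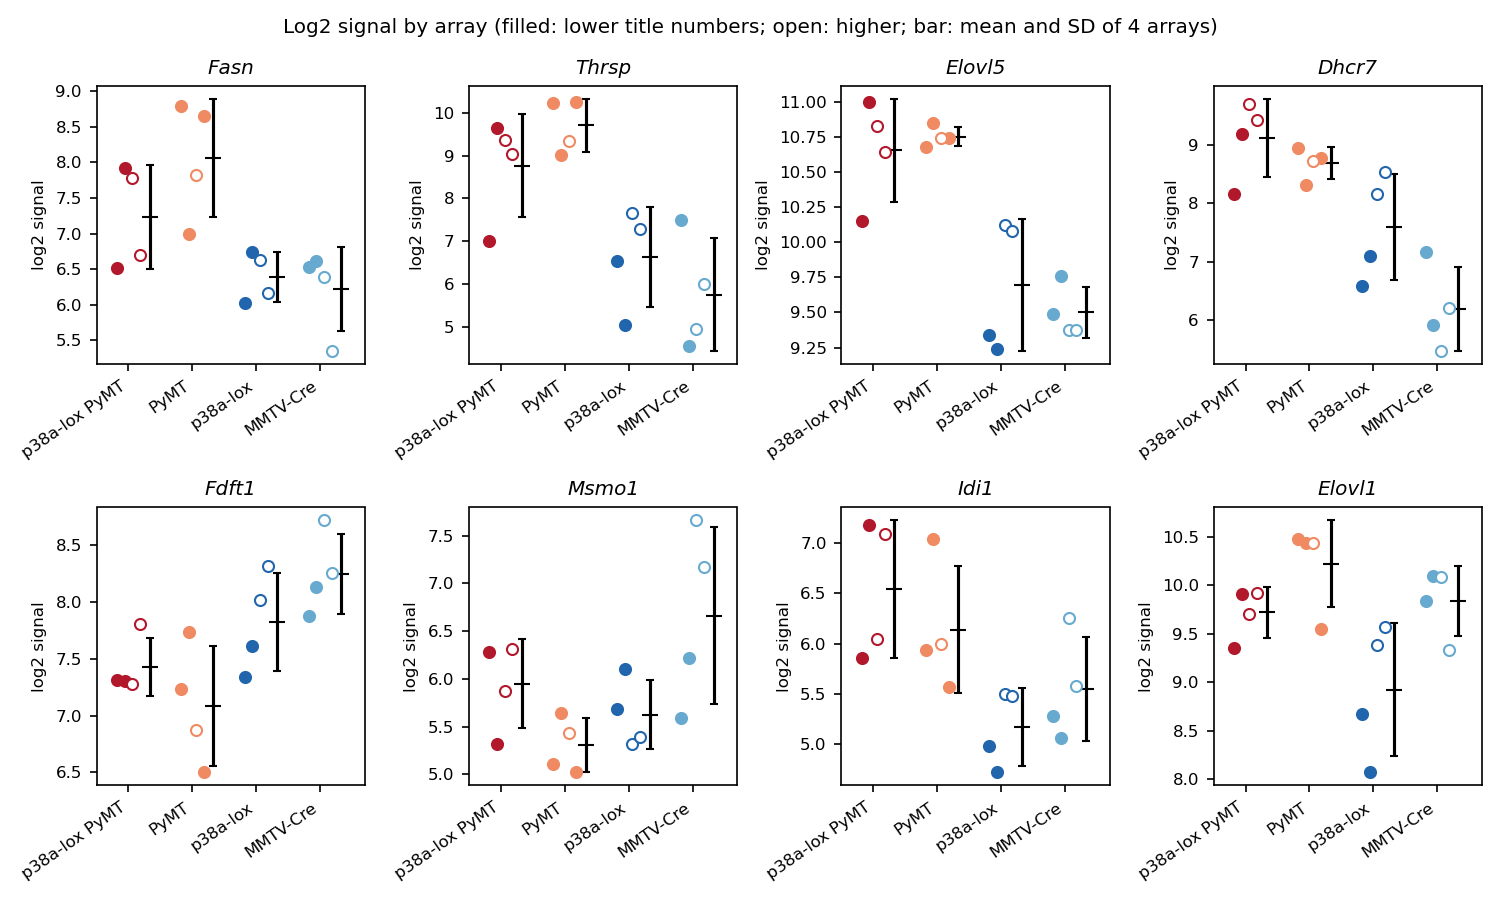
Log2 signal of 8 members in each array (points; filled for the lower and open for the higher range of title numbers), with the mean and SD of the 4 arrays of each group (bars). Thrsp, Fasn, Elovl5 and Dhcr7 are separate between PyMT and MMTV-Cre arrays, and the open p38a-lox points of Dhcr7, Elovl5 and Elovl1 lie above the filled ones.

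The p38a-lox allele was then compared within each age, which the design makes without a difference in PyMT. In p38a-lox PyMT against PyMT cells 0 of 30 members were called by limma, as were 0% of all genes. No member reached an unadjusted p under 0.05, against 3.58% of all genes, and no member had separate groups, against 2.55%. The median of the members was -0.02, and that of all genes -0.04. Leaving out 1 array moved the members' median between -0.19, without p38a-lox PyMT replicate 2, and 0.05, without p38a-lox PyMT replicate 1. Estimates were 14 higher and 16 lower (53.3%, against 58.2% of all genes).

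The estimates with the smallest p there were those of Fasn, Gpam and Msmo1. Fasn, with signals of 6.52, 7.93, 7.79 and 6.70 in p38a-lox PyMT arrays, against 8.79, 6.99, 7.83 and 8.65 in PyMT arrays, differed by -0.83 ± 0.422 (SE; unadjusted p = 0.0676). The ranges overlapped broadly, with p38a-lox PyMT replicates 1 and 4 below every PyMT array and replicates 2 and 3 among them. Gpam, the acyltransferase that starts glycerolipid assembly in mitochondria, had log2 signals of 6.33, 5.92, 5.85 and 5.96 in p38a-lox PyMT arrays, against 6.22, 7.05, 6.23 and 6.32 in PyMT arrays. It differed by -0.44 ± 0.244 (unadjusted p = 0.09), and without PyMT replicate 2, the high array of that group, by -0.24. Msmo1, at 6.28, 5.32, 5.88 and 6.32 in p38a-lox PyMT arrays, against 5.11, 5.64, 5.43 and 5.03 in PyMT arrays, differed by 0.64 ± 0.371 (unadjusted p = 0.104). The limma adjusted p was 0.999 for every member in this comparison.

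Thrsp differed by -0.95 ± 0.71 between these groups and Elovl5 by -0.10 ± 0.217, with Dhcr7 at 0.43 ± 0.44. Of the 4 members that rose with PyMT, Fasn, Thrsp and Elovl5 had estimates under 0 in p38a-lox PyMT relative to PyMT cells, and none passed the test. The other probe set of Thrsp differed by -0.73, and that of Elovl5 by 0.31, with the opposite sign. The 4 were picked for high signals in PyMT arrays, which are the reference here. That choice draws estimates towards values under 0, so no conclusion is drawn from their signs. These values do not show that the groups are alike.

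Without PyMT, p38a-lox against MMTV-Cre cells also gave 0 of 30 members called, with 0% of all genes. An unadjusted p under 0.05 was reached by 4 members (13.3%), against 4.79% of all genes: Dhcr7 higher, and Elovl1, Msmo1 and Scd1 lower. The median of the members was -0.22, against 0.00 over all genes, and 18 of 30 estimates were negative (60%, against 49.9%). Without p38a-lox replicate 2 the median of the members was -0.09, without MMTV-Cre replicate 3 it was -0.11, and with array weights 0.03. Cholesterol synthesis had 9 of 12 estimates below 0 and a median of -0.38.

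Dhcr7 had log2 signals of 6.59, 7.10, 8.16 and 8.53 in p38a-lox arrays, against 7.17, 5.92, 5.48 and 6.22 in MMTV-Cre arrays. Replicates 3 and 4 of p38a-lox were above all MMTV-Cre arrays, whereas replicates 1 and 2 lay within their range. The difference was 1.40 ± 0.44 (SE; unadjusted p = 0.00637, limma adjusted p = 0.779). Within the lower range of title numbers it was 0.30 and within the higher range 2.49.

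Elovl1, an elongase of very long saturated and monounsaturated chains, had log2 signals of 8.67, 8.07, 9.38 and 9.57 in p38a-lox arrays, against 9.84, 10.10, 10.08 and 9.33 in MMTV-Cre arrays. The lowest arrays were p38a-lox replicates 1 and 2, and the groups overlapped. The difference was -0.91 ± 0.309 (unadjusted p = 0.0101, adjusted p = 0.833), made up of -1.60 in the lower and -0.23 in the higher title range. Scd1 differed by -0.60 ± 0.232 (unadjusted p = 0.0217, adjusted p = 0.963), and without replicates 3 and 4 of both groups by -0.70.

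Msmo1 signals were 5.69, 6.11, 5.32 and 5.39 in p38a-lox arrays, against 5.59, 6.22, 7.66 and 7.17 in MMTV-Cre arrays. Its difference of -1.04 ± 0.371 (unadjusted p = 0.0138, adjusted p = 0.87) came to -2.06 in the higher title range and -0.01 in the lower. Elovl6, which lengthens palmitate to stearate, was the only tested member whose arrays did not overlap (3.33%, against 2.1% of all genes), at 4.89, 5.49, 5.35 and 5.75 in p38a-lox arrays, against 4.69, 4.32, 4.83 and 4.73 in MMTV-Cre arrays. That difference was 0.73 ± 0.349 (unadjusted p = 0.0554), and 0.68 without replicates 3 and 4 of both groups. The other Elovl6 probe sets, of similar mean signal, differed by only 0.16 and 0.32.

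Of the 30 members, 20 had the same sign in both title ranges in this comparison, 13 of them negative and 7 positive. The number was 18 for p38a-lox PyMT against PyMT, 22 for PyMT against MMTV-Cre, and 20 both for p38a-lox PyMT against p38a-lox and for the interaction, the p38a-lox difference with PyMT minus that without it. For p38a-lox against MMTV-Cre cells the median over members was 0.22 within the higher range. Thrsp was the member with the widest gap among those that rose with PyMT, at -0.24 within the lower and 2.0 within the higher range. The 4 arrays without PyMT in the higher range are also those whose Mapk14 signal ran against the labels. That probe set does not check the genotypes in either range. The p38a-lox replicate 2 array, of low correlation with the others, had the lowest signal of all 16 arrays for Sqle (4.93), Cyp51 (6.15), Nsdhl (5.85) and Sc5d (4.59).

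**Figure D4:**
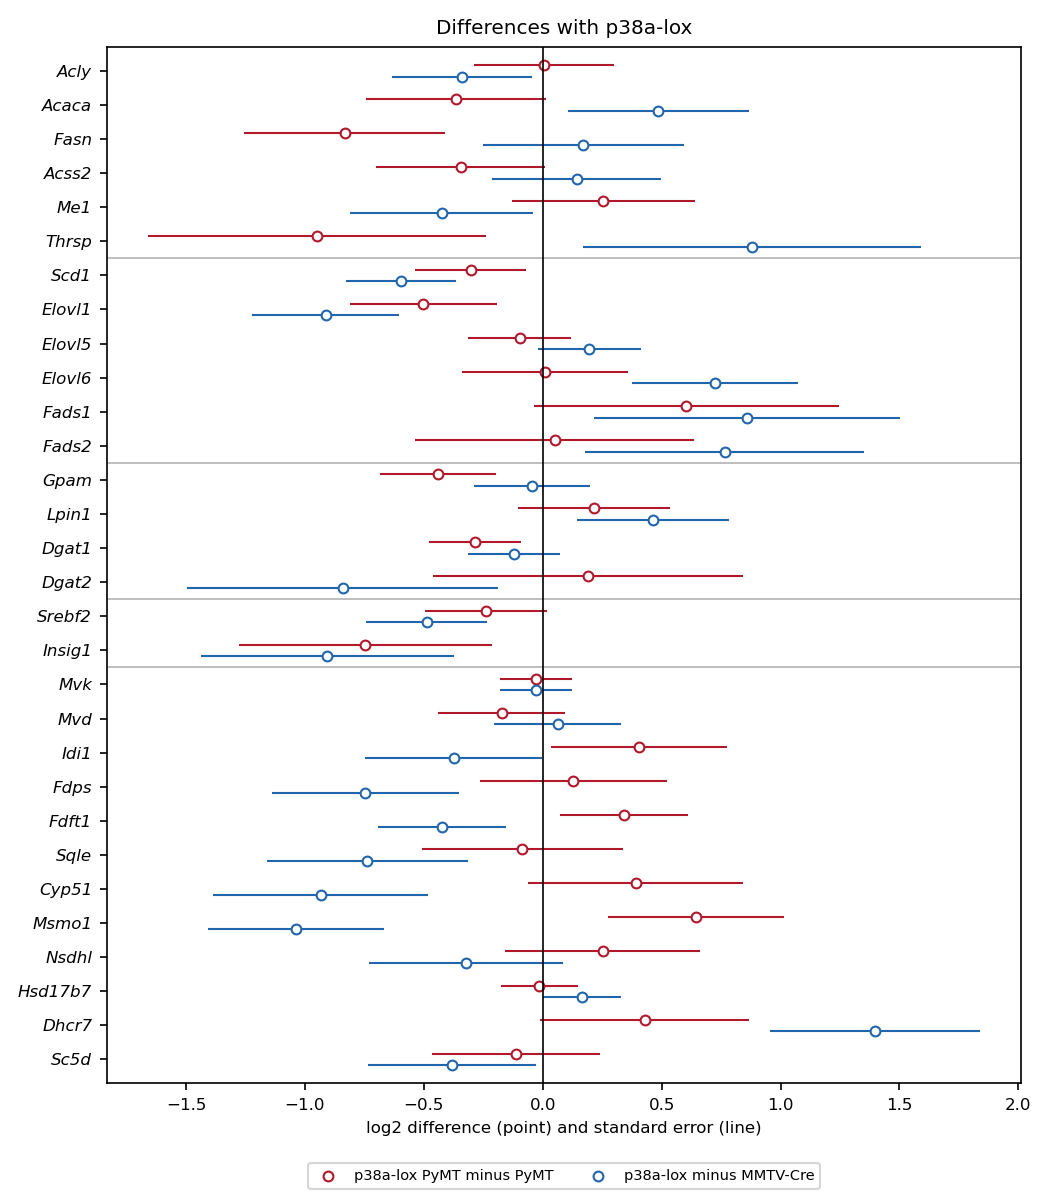
Log2 differences (points) and standard errors (lines) of the 30 tested members between groups with and without the p38a-lox allele, with PyMT in red and without it in blue; no member passed the adjusted threshold. Cholesterol synthesis genes from Idi1 to Nsdhl lie to the left of 0 without PyMT, and with PyMT most of them lie to the right.

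The dependence of the p38a-lox difference on PyMT was taken as the log2 difference with PyMT minus the log2 difference without it, in the same limma model. No member was called (0 of 30, against 0% of all genes), and 1 member (3.33%) reached an unadjusted p under 0.05, against 2.82% of all genes. That member was Msmo1, at 1.68 ± 0.525 (SE; unadjusted p = 0.00604, adjusted p = 0.992), which was 0.55 within the lower title range and 2.73 within the higher, and 0.655 without replicates 3 and 4 of p38a-lox and MMTV-Cre. The estimates of the cholesterol synthesis genes were positive for 9 of 12, with a median of 0.61. Those of fatty acid synthesis were negative for 4 of 6, with a median of -0.67. Without replicates 3 and 4 of p38a-lox and MMTV-Cre the split was less clear in fatty acid synthesis. The estimates there were then 0.91 for Acly, -0.70 for Acaca, -0.64 for Fasn, 0.11 for Acss2, 0.35 for Me1 and -0.71 for Thrsp. In cholesterol synthesis only Dhcr7 changed its sign, from -0.97 to 0.13. Both roles draw on the same p38a-lox arrays, of which replicates 1 and 2 were low in cholesterol synthesis genes. Over all 30 members the median was 0.08, against -0.04 over all genes. It was below 0 without p38a-lox PyMT replicate 2 (-0.0981), PyMT replicate 4 (-0.0533), p38a-lox replicate 1 (-0.0248) or 2 (-0.0541), or MMTV-Cre replicate 3 (-0.0329), and with array weights (-0.239).

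Cyp51 and Fdft1 followed Msmo1 in order of p. Cyp51 had log2 signals of 7.71, 8.42, 8.42 and 8.58 in p38a-lox PyMT arrays, 7.95, 8.47, 8.00 and 7.16 in PyMT arrays, 7.14, 6.15, 7.84 and 7.70 in p38a-lox arrays, and 7.66, 7.39, 9.53 and 8.00 in MMTV-Cre arrays. The lowest of the 16 arrays was p38a-lox replicate 2 and the highest MMTV-Cre replicate 3. The estimate was 1.33 ± 0.639 (SE; unadjusted p = 0.0559), and without MMTV-Cre replicate 3 it was 0.86. Fdft1, with 7.32, 7.30, 7.28 and 7.81 in p38a-lox PyMT arrays, against 7.34, 7.62, 8.02 and 8.32 in p38a-lox arrays and the PyMT and MMTV-Cre signals given above, had an estimate of 0.76 ± 0.382 (unadjusted p = 0.0642).

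Further genes of lipid metabolism were taken from lists of sterol synthesis, sterol uptake and sensing, fatty acid synthesis and elongation, fatty acid uptake, glycerolipid assembly and fatty acid oxidation, of which 65 of 91 genes were tested. In PyMT against MMTV-Cre cells 1 rose and 1 fell (3.08% of the 65, against 1.26% of all genes), and the same genes were called in p38a-lox PyMT against p38a-lox cells (3.08%, against 0.777%). Hacd1, a dehydratase of the fatty acid elongation cycle, had signals of 8.31 to 9.07 in PyMT arrays and 4.45 to 6.72 in MMTV-Cre arrays, a difference of 2.62 ± 0.385 (SE; adjusted p = 0.00566). In p38a-lox PyMT arrays it lay at 8.10 to 8.61, against 5.85 to 6.44 in p38a-lox arrays, a difference of 2.23 ± 0.385 (adjusted p = 0.0167). Pdk4, the pyruvate dehydrogenase kinase that rises in fasting and spares glucose carbon, fell by 2.79 on the log2 scale in PyMT relative to MMTV-Cre cells (adjusted p = 0.00869) and by 2.25 in p38a-lox PyMT relative to p38a-lox cells (adjusted p = 0.0305). Without replicates 3 and 4 of p38a-lox and MMTV-Cre, Hacd1 passed in both comparisons (adjusted p = 0.0283 and 0.0312), and Pdk4 passed in PyMT against MMTV-Cre cells (adjusted p = 0.0386) but not in p38a-lox PyMT against p38a-lox cells (-1.51, adjusted p = 0.1). Its signals were 3.65 to 4.57 in p38a-lox PyMT arrays, 3.04 to 4.59 in PyMT arrays, 4.90 to 7.09 in p38a-lox arrays and 5.90 to 7.21 in MMTV-Cre arrays. None of the 65 was called for p38a-lox against its control, with or without PyMT, nor in the interaction.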

How the data were processed

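RNA of sorted luminal cells was hybridised to 16 single-colour Affymetrix mouse arrays, 4 in each of 4 groups, and their number limits the precision. The authors deposited 1 table of log2 values per probe set, normalized by RMA per the submitters' processing notes; background correction and scaling are therefore fixed upstream. No version or array software beyond RMA is given in the sources used here. Of 45141 probe sets, 28898 name 1 gene symbol in the platform annotation, and the probe set with the highest mean stood for each of 17097 genes. Genes with a mean under the 25th percentile of all probe sets (3.67) were left out. The 4 group means were fitted to all 16 arrays with limma 3.58.1 in R 4.3.3 (lmFit, contrasts, eBayes), with Benjamini-Hochberg adjustment over 14410 genes, and called at an adjusted p under 0.05. The steps were tested on simulated data. The members and the lists were chosen with earlier results of these data known. All members may be named. Array values are given for members called in any comparison and for the 3 smallest p in each. Those of Sqle, Elovl6 and the untested Hmgcs1 and Lss were chosen after their values were seen. So were the single arrays given for Fads1, Fads2, Dgat2, Insig1, Nsdhl and Sc5d. Replicate numbers follow accession order. Alternatives changed the filter, the probe set, the eBayes options, the normalization, array weights, the arrays fitted and the title range; leaving out the 2 arrays of lowest correlation, or the 4 whose Mapk14 signal ran against the labels, was chosen after seeing the data. Promoter windows, 250 bases long, came from RefSeq.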

Additional observations from a re-analysis of the deposited data

Results flagged for a closer look

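Among the 10 members whose array values were given by rule, 40 groups of 4 arrays were checked for an array far from the other 3 of its group (Dixon's ratio above its critical value), and 3 were found, where chance gives about 1 in 20. Fdft1, the squalene synthase, was at 7.806 in p38a-lox PyMT replicate 4, with the other 3 arrays between 7.28 and 7.316. Elovl1, the elongase of very long chains, was at 9.552 in PyMT replicate 4, with the others between 10.43 and 10.48. Gpam, the acyltransferase of glycerolipid assembly, was at 7.053 in PyMT replicate 2, with the others between 6.22 and 6.319.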

How the results depend on the processing

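No called difference changed its sign, whereas the median over the members changed its sign in both p38a-lox comparisons and in the interaction, as given above. For PyMT against MMTV-Cre cells the number of members called was 4, and it became 9 with array weights and 0 without replicates 3 and 4 of p38a-lox and MMTV-Cre, an alternative chosen after seeing the data. Leaving out 1 array at a time gave 1 to 6. For p38a-lox PyMT against p38a-lox cells the number was 0, and it became 1 with the filter at the median, 4 with array weights, 4 without those same 4 arrays, and 0 to 1 leaving out 1 array at a time. Without those 4 arrays the p38a-lox side held only replicates 1 and 2. Array weights ran between 0.206 for p38a-lox replicate 2 and 4.36 for p38a-lox replicate 3. Thrsp lost its call in 3 of 22 alternatives (adjusted p 0.00193 to 0.135), Dhcr7 in 2 (0.00189 to 0.0863) and Elovl5 in 3 (0.00134 to 0.28), of which 2 used other Elovl5 probe sets. Within the higher title range the median member difference was 0.218 for p38a-lox against MMTV-Cre cells, where all arrays gave -0.221, and -0.433 for the interaction, where all arrays gave 0.0801. The cause of these shifts was not tested. The p38a-lox comparisons and the interaction called 0 members in every alternative fitted. No paired analysis was possible because the labels give no replicate numbers that groups share. Signal over background is not given for these values, so dim probe sets such as those of Hmgcs1 and Lss say little about the level of their genes.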

Other observations

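Single arrays stood apart in genes of lipid synthesis, and MMTV-Cre replicate 2 outside them as well. Its mean log2 signal of the 8 milk secretion genes was 7.70, against 9.38, 10.02 and 9.45 in MMTV-Cre replicates 1, 3 and 4. In MMTV-Cre replicate 2 the desaturases Fads1 and Fads2 were at 6.99 and 7.19 on the log2 scale, while the other 3 MMTV-Cre arrays lay between 9.32 and 10.37 for Fads1 and between 8.78 and 10.75 for Fads2. The same array had the highest signal of all 16 for Dgat2, which like Dgat1 completes triglyceride, at 9.52, and p38a-lox PyMT replicate 1 came next at 8.80. In MMTV-Cre replicate 3, Cyp51 (9.53), Msmo1 (7.66) and Fdft1 (8.72) were the highest of all 16 arrays, and Insig1, at 7.89, was second to PyMT replicate 1 at 8.32.

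The dim probe set of Hmgcs1, which makes the precursor of mevalonate, had log2 signals of 3.67, 3.56, 3.47 and 3.60 in p38a-lox PyMT arrays, 3.63, 3.82, 3.53 and 3.33 in PyMT arrays, 3.47, 3.58, 3.38 and 3.50 in p38a-lox arrays, and 3.31, 3.698, 4.19 and 4.23 in MMTV-Cre arrays. That of Lss, the lanosterol synthase, had 3.48, 3.91, 3.42 and 3.47 in p38a-lox PyMT arrays, all above the 3.16, 3.40, 3.31 and 3.11 of p38a-lox arrays. Neither gene was tested.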
